A study of Mus musculus with 8 samples.

Results

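The Cyp2c family is a group of cytochrome P450 enzymes that sit in the endoplasmic reticulum of the liver cell and oxidise fatty acids, retinoids, bile acids, steroids and drugs. Its 10 mouse genes described here (Cyp2c29, Cyp2c37, Cyp2c38, Cyp2c39, Cyp2c40, Cyp2c44, Cyp2c50, Cyp2c54, Cyp2c55 and Cyp2c70) were chosen by name, and 9 of them had at least 1 probe of that name among the 34836 names on the array. No probe was named Cyp2c40, and 2 probes named for Cyp2c67 and Cyp2c68 list its transcript together with others. The other 9 genes were read by 13 probes of 60 bases, of which 3 genes had more than 1, and every probe was kept apart. RefSeq now lists Cyp2c44 under the symbol Cyp2c23.

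Several Cyp2c enzymes add an oxygen to arachidonic acid and give epoxyeicosatrienoic acids, lipid signals that soluble epoxide hydrolase breaks down, or hydroxylate it to hydroxyeicosatetraenoic acids. Each enzyme takes its electrons from cytochrome P450 reductase, partly through cytochrome b5. In rodent liver many Cyp2c genes respond to the nuclear receptors CAR and PXR, depend on HNF4A, and differ between the sexes through the pattern of growth hormone release.

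Liver RNA of 4 NZO mice (NZO/HiBomDife, an inbred strain with polygenic obesity that is prone to diabetes) and of 4 B6 mice (C57BL/6, lean and diabetes-resistant) was hybridised to 1-colour Agilent arrays, 1 array per mouse. All 8 mice were males with an age of 6 weeks in the labels, and all received a high fat diet with 45% fat, so that no mouse on another diet was part of the comparison. The strains differ at loci across the whole genome and, by the series title, in body weight and diabetes risk, and these cannot be told apart here. RNA came from whole liver, in which fewer cells of a type and less RNA per cell cannot be told apart.

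Each array held 59305 spots for genes, of which 50.4% to 60.1% were well above background and none was saturated. The level of a probe is its log2 signal minus the 75th percentile of its array, so that 0 marks a spot brighter than 75% of the spots. Hepatocyte identity was clear in both strains, since 5 of 5 hepatocyte markers were above background on all 8 arrays and none was called different between the strains. Albumin (Alb), the main protein that hepatocytes secrete, had a level of 11.21 ± 0.02 (SD, n = 4) in NZO and 10.94 ± 0.23 in B6.

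Because Cyp2c genes are close copies of each other, the sequence that a probe reads decides which transcript it can catch. The 2 probes below come from different genes and overlap by 31 bases. Their capitals mark the 4 bases of that overlap in which they differ, and the positions are on mm9, the genome build of the array files. The first lies at chr19:39403642-39403701 (+ strand) and the second at chr19:40084382-40084441 (+ strand).

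Cyp2c29 A_51_P103706: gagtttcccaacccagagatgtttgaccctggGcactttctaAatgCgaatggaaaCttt

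Cyp2c37 A_55_P1964483: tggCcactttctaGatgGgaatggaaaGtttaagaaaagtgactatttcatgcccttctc

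A pair of Cyp2c54 probes reads nearly the same stretch, shifted by 18 bases. The capitals mark the 42 bases that both hold. The first lies at chr19:40144659-40144718 (- strand), and the 60 bases of the second span a far longer stretch of the genome, chr19:40122119-40144700 (- strand).

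Cyp2c54 A_55_P2158547: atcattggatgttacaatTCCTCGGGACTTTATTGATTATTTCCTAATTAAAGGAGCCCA

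Cyp2c54 A_52_P154580: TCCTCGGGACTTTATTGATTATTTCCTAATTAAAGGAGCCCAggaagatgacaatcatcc

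The probes follow the C57BL/6J reference, and base differences of NZO mice under them were not analysed here. Whether such differences contribute to any strain difference below was not tested.

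The question for the family was which members differed between the livers of the obese and the lean strain. Most did, and more of them were lower in NZO: 8 of the 13 probes were lower, 2 were higher and 3 were not called. With only probes above background on all 8 arrays, 7 of 11 Cyp2c probes were lower and 1 was higher. Of all probes, 957 were lower and 961 higher under that filter. Cyp2c44 was 12.2-fold lower and 1 of the 2 Cyp2c37 probes 9.07-fold, whereas the size for Cyp2c55 depended on the background correction. The neighbours Cyp2c37, Cyp2c54 and Cyp2c50 were lower by at least 1 probe each, whereas Cyp2c39 was higher. The 2 Cyp2c38 probes went in opposite directions, but the one higher in NZO was above background on only 2 of the 4 B6 arrays.

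A probe was called when limma's adjusted p (Benjamini-Hochberg over 27639 probes tested) was at most 0.05 and its log2 difference at least 0.7 in size. By this rule 4.36% of all tested probes were higher in NZO, 5.27% were lower and 9.62% were called in either direction, against 76.9% of the 13 Cyp2c probes. All 13 passed the filter on dim probes, for which at least 1 strain had to be above background in each of its 4 mice, and 11 were above background on all 8 arrays. Cyp2c38 A_52_P468564 passed only through NZO and Cyp2c55 only through B6, in each case the strain with the higher levels, which favoured their direction. The arrays of the strains did not overlap for 12 of the 13 probes, against 22.01% of all tested probes. The median difference (NZO minus B6, log2) was -1.07 over the Cyp2c probes and 0.02 over all tested probes.

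**Figure D1:**
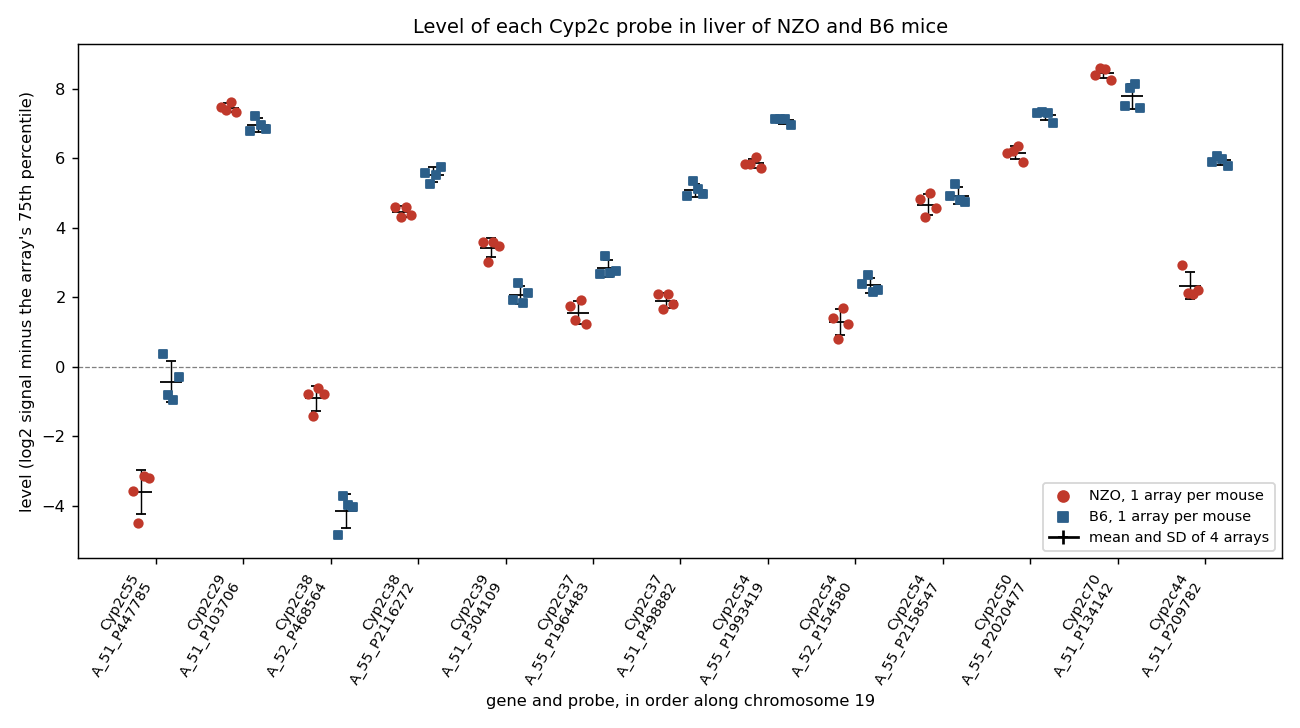
Level of each of the 13 Cyp2c probes (y axis, log2 signal minus the array's 75th percentile) on 4 NZO arrays (red circles) and 4 B6 arrays (blue squares), with the mean and SD of each strain in black and the probes in order along chromosome 19 (x axis). Only the Cyp2c54 probe A_55_P2158547 has NZO and B6 points that overlap.

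The order of the genes on chromosome 19 was compared with the sign of the differences. In the order of the tested probes, Cyp2c55 comes first, followed by Cyp2c29, Cyp2c38 and Cyp2c39, then Cyp2c67 and Cyp2c68, then Cyp2c37, Cyp2c54, Cyp2c50 and Cyp2c70, and Cyp2c44 lies apart at the end. The called probes of Cyp2c39, Cyp2c67 and Cyp2c68, which follow each other in this order, were all higher in NZO. All called probes of Cyp2c37, Cyp2c54 and Cyp2c50, the next genes with a tested probe, were lower.

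**Figure D2:**
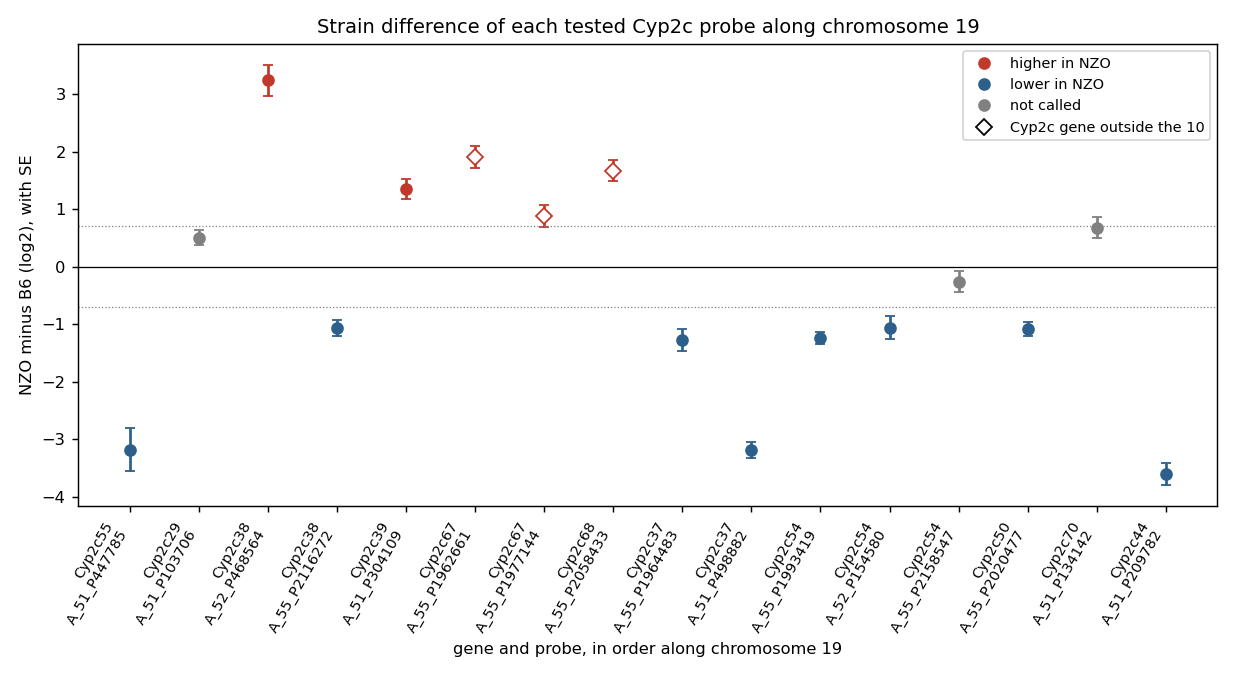
Difference between the strains (y axis, NZO minus B6 in log2, with the SE of limma) for the 16 tested Cyp2c probes in order along chromosome 19 (x axis), red where called higher in NZO, blue where called lower and grey where not called, with open diamonds for the genes outside the 10. The dotted lines mark a log2 difference of 0.7 in either direction, and the points run from -3.60 for Cyp2c44 to 3.24 for Cyp2c38 A_52_P468564.

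Cyp2c70 is the enzyme that hydroxylates chenodeoxycholic acid and ursodeoxycholic acid to the muricholic acids of mice. Its probe A_51_P134142 had levels of 8.40, 8.60, 8.57 and 8.26 in NZO mice 003, 007, 009 and 011, and of 7.50, 8.03, 8.15 and 7.44 in B6 mice 009, 010, 011 and 015. The NZO arrays were all above the B6 arrays, but B6 mice 010 and 011 came close to them. The difference of 0.68 (SE 0.18, limma's adjusted p = 0.0437) passed the limit on p and not the limit on its size. Leaving out a mouse gave 0.57 to 0.80. While both limits were passed without B6 mouse 011 (adjusted p = 0.0286), the limit on p was missed in the other 7 omissions (adjusted p of 0.0533 to 0.116). Cyp2c70 also passed both limits with the array median (0.74, adjusted p = 0.0335), whereas it was 0.47 in the deposited table (adjusted p = 0.141).

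Bile acid synthesis as a whole was listed beside it. None of its 7 genes, all above background on the 8 arrays, was called in either direction, and their median difference was 0.15. Cyp7a1, the rate-limiting enzyme of the classical pathway and named here after its values were seen, had levels of 2.07, 1.76, 2.03 and 3.14 in NZO and of 0.75, -0.33, 1.02 and 1.501 in B6. The strains did not overlap, but the difference of 1.52 (SE 0.43, adjusted p = 0.0506) missed the limit on p. Slc27a5, the bile acid CoA ligase of the liver and the brightest uncalled gene of the list, had levels of 9.43 ± 0.09 in NZO and 9.27 ± 0.08 in B6.

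Cyp2c29 and Cyp2c39 form epoxyeicosatrienoic acids, and Cyp2c39 also hydroxylates retinoic acid. The Cyp2c29 probe printed above stood on the array in 10 spots, whose levels on an array had an SD of at most 0.06. Its levels were 7.48, 7.39, 7.63 and 7.32 in NZO and 6.77, 7.22, 6.95 and 6.85 in B6, in the order of mice given for Cyp2c70. All NZO arrays were above all B6 arrays, by 0.10 at the nearest.

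The Cyp2c29 difference of 0.51 (SE 0.13, adjusted p = 0.0318) passed the limit on p only. It missed that limit too in 6 of the 8 omissions of a mouse (adjusted p of 0.0502 to 0.0945) and in the deposited table (0.25, adjusted p = 0.271). Cyp2c39 gave a larger one, with levels of 3.59, 3.02, 3.60 and 3.47 in NZO and of 1.91, 2.40, 1.85 and 2.11 in B6. Each NZO mouse was above each B6 mouse. Cyp2c39 was 1.35 higher in NZO on the log2 scale (SE 0.18, adjusted p = 0.00141), a fold of 2.55. Its probe lies at chr19:39642568-39642627 (+ strand).

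Cyp2c39 A_51_P304109: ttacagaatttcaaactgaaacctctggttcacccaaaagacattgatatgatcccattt

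Cyp2c38, an epoxygenase next to Cyp2c39 on the chromosome, was read by 2 probes that lie 977 bases apart in its transcript. The first, A_55_P2116272, was above background on all arrays and had levels of 4.59, 4.30, 4.59 and 4.37 in NZO and of 5.58, 5.25, 5.52 and 5.76 in B6. Every NZO array was below every B6 array on this probe, and it was 1.07 lower in NZO (difference -1.07, SE 0.13, adjusted p = 0.00114).

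The second Cyp2c38 probe, A_52_P468564, had levels of -0.80, -1.43, -0.62 and -0.79 in NZO and of -4.84, -3.72, -3.98 and -4.05 in B6. Here every NZO array was above every B6 array, and only 2 of the 4 B6 arrays were above background. The probe passed the filter on dim probes only through NZO, which favoured this direction. The difference of 3.24 (SE 0.27, adjusted p = 0.000123) rests in part on B6 values not above background. It shrank to 1.01 after background correction by normexp (adjusted p = 0.00013) and to 1.36 in the deposited table, and stayed called in both. The 2 Cyp2c38 probes thus gave opposite directions, but the one higher in NZO entered the tests only through NZO.

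Cyp2c37, Cyp2c50 and Cyp2c54 lie next to each other and also oxidise arachidonic acid, Cyp2c37 mainly to a hydroxyeicosatetraenoic acid. Cyp2c50 was read by A_55_P2020477, with levels of 6.16, 6.21, 6.35 and 5.90 in NZO and of 7.29, 7.33, 7.31 and 7.02 in B6. All NZO arrays were lower, and B6 mouse 015 was the lowest of its strain. Cyp2c50 was 2.11-fold lower in NZO (log2 difference -1.08, SE 0.13, adjusted p = 0.00084).

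For Cyp2c37 the probe printed above, A_55_P1964483, had levels of 1.73, 1.34, 1.93 and 1.22 in NZO and of 2.66, 3.18, 2.70 and 2.76 in B6. The second probe, A_51_P498882, lies 315 bases further along the transcript and had levels of 2.08, 1.66, 2.09 and 1.79 in NZO and of 4.91, 5.33, 5.11 and 4.98 in B6. Both probes were lower in every NZO mouse than in every B6 mouse, but not by the same amount.

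The difference was -1.27 (SE 0.19, adjusted p = 0.00287) on the first Cyp2c37 probe and -3.18 (SE 0.14, adjusted p = 4.46e-06) on the second. The second probe resembles that of Cyp2c50, with 35 identical bases in an overlap of 40, while the first resembles that of Cyp2c29, with 27 of 31. The share of signal that close copies add to either probe was not tested.

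Cyp2c54 was read by 3 probes. The probe A_55_P1993419 had levels of 5.82, 5.82, 6.03 and 5.72 in NZO and of 7.13, 7.13, 7.14 and 6.94 in B6, with the lowest B6 mouse above all NZO mice. Its difference was -1.24 (SE 0.10, adjusted p = 0.000124).

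The 2 overlapping Cyp2c54 probes printed above did not give the same difference. The second, A_52_P154580, had levels of 1.40, 0.81, 1.70 and 1.23 in NZO and of 2.37, 2.63, 2.14 and 2.21 in B6, a difference of -1.06 (SE 0.20, adjusted p = 0.00902). On the first, A_55_P2158547, the levels were 4.82, 4.29, 4.99 and 4.56 in NZO and 4.90, 5.27, 4.79 and 4.73 in B6. The strains were apart on the second and overlapped on the first, whose difference of -0.26 (SE 0.18, adjusted p = 0.407) was not called.

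Whether probes of the same gene gave different strain differences was tested for all 5 pairs of such probes, by an exact two-sided permutation test on the difference between both probes on each of the 8 arrays. The smallest exact permutation p that 4 against 4 arrays allow is 0.0286, and 4 pairs reached it (exact permutation p = 0.0357 after Benjamini-Hochberg adjustment over the 5 pairs). The strain differences were 4.30 apart on the log2 scale for Cyp2c38, 1.91 apart for Cyp2c37, and 0.80 apart for the 2 overlapping Cyp2c54 probes. The Cyp2c38 gap and its p rest in part on B6 values not above background, since A_52_P468564 was above it on 2 of 4 B6 arrays. With normexp the strain differences of the Cyp2c38 probes were 1.01 and -1.17. The Cyp2c54 probes A_55_P1993419 and A_55_P2158547 were 0.98 apart. The fifth pair, A_55_P1993419 and A_52_P154580 of Cyp2c54, was 0.18 apart (exact permutation p = 0.371).

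**Figure D3:**
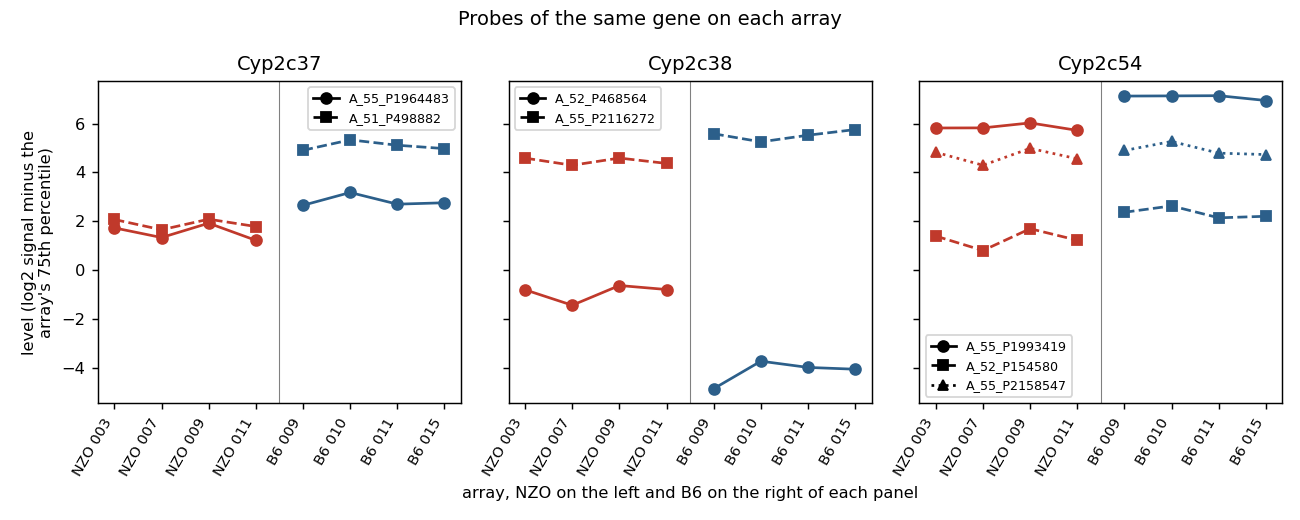
Levels of the probes of Cyp2c37, Cyp2c38 and Cyp2c54 (y axis, log2 signal minus the array's 75th percentile) on the 4 NZO arrays (red) and the 4 B6 arrays (blue) (x axis), with a line and symbol for each probe. The Cyp2c38 probes move apart from NZO to B6, and the Cyp2c37 probes are 0.16 to 0.56 apart on the NZO arrays and 2.15 to 2.41 apart on the B6 arrays.

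Cyp2c55, best known from the colon and from mice treated with drugs that activate CAR or PXR, was lower in NZO. Its probe A_51_P447785 had levels of -3.57, -4.50, -3.15 and -3.22 in NZO and of 0.35, -0.80, -0.97 and -0.29 in B6. All B6 arrays and 3 of the 4 NZO arrays were above background, and NZO mouse 007 was the lowest. The probe thus passed the filter on dim probes only through B6, which favoured this direction. The difference was -3.18 (SE 0.38, adjusted p = 0.000829), which became -1.09 after normexp background correction (adjusted p = 0.0025) and -1.79 in the deposited table.

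Cyp2c44 is an epoxygenase whose gene stands apart from the other Cyp2c genes on the chromosome. Its probe A_51_P209782 had levels of 2.92, 2.11, 2.10 and 2.20 in NZO and of 5.90, 6.08, 5.99 and 5.78 in B6. NZO mouse 003 was the highest of its strain and still 2.86 below the lowest B6 mouse. Cyp2c44 had a difference of -3.60 (SE 0.19, adjusted p = 1.13e-05), a fold of 12.2.

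Slides and scan days were set against these differences. The 5 slides included 1 that held both strains (slide 1, with NZO mouse 003 and B6 mice 010 and 015), and each of the 2 scan days held both strains. All 10 called probes had the same sign within slide 1, within scan day 1 (3 NZO and 2 B6 arrays) and within scan day 2 (1 NZO and 2 B6 arrays). This was fixed in advance, since the arrays of the strains did not overlap for any of these probes. The signs are thus no check on slide or scan day. Cyp2c44 differed by -3.01 within slide 1, by -3.52 within scan day 1 and by -3.84 within scan day 2. With slide as a fixed term, only slide 1, with 1 NZO array, informs the strain difference. The decreases were then -3.08 for Cyp2c37 A_51_P498882, -3.01 for Cyp2c44 and -3.02 for Cyp2c55. The increases were 3.08 for Cyp2c38 A_52_P468564 and 1.33 for Cyp2c39. Cyp2c55 and Cyp2c38 A_52_P468564 had entered the tests only through the strain with the higher levels, which favoured their direction. The other 5 decreases were -1.24 to -0.92 and were no longer called.

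**Figure D4:**
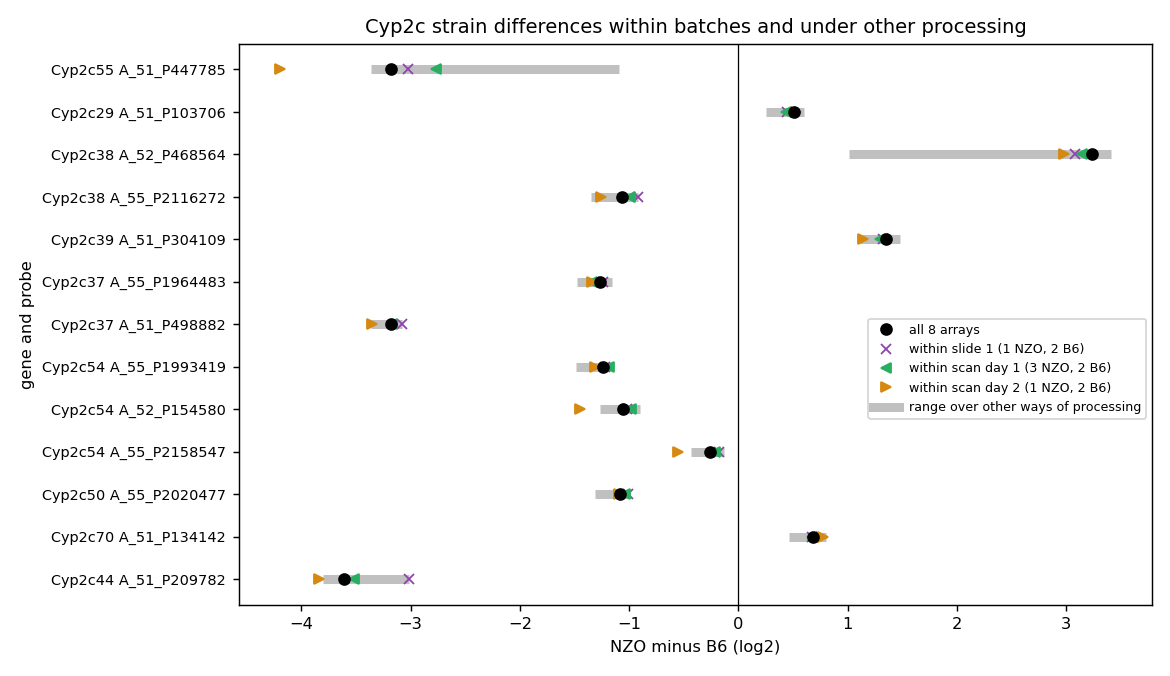
Difference between the strains (x axis, NZO minus B6 in log2) of each of the 13 Cyp2c probes (y axis) over all 8 arrays (black dots), within slide 1 (crosses), within scan day 1 and within scan day 2 (triangles), with grey bars for the range over other ways of processing. None of the 13 changes sign, and the dim probes Cyp2c38 A_52_P468564 and Cyp2c55 have the widest bars, down to sizes of 1.01 and 1.09. Within slide 1 and the scan days the sign was fixed in advance for the 12 probes without overlap between the strains.

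The other Cyp2c genes of the same cluster were set beside the 10. Of 6 listed, 4 had a probe, and the 3 tested probes, for Cyp2c67 and Cyp2c68, were all higher in NZO. Cyp2c67 A_55_P1962661 had levels of 8.85, 8.79, 8.92 and 8.84 in NZO and of 6.53, 7.39, 7.14 and 6.72 in B6, a difference of 1.91 (SE 0.19, adjusted p = 0.000288). The NZO mice were close to each other and the B6 mice more spread. Cyp2c68 A_55_P2058433 differed by 1.67 (SE 0.19, adjusted p = 0.000673), but its probe shares 55 of 59 bases with the Cyp2c67 probe and also lists the transcripts of Cyp2c40 and Cyp2c69. The second Cyp2c67 probe, A_55_P1977144, lists Cyp2c40 and Cyp2c68 as well and differed by 0.89 (SE 0.19, adjusted p = 0.0165). That call was lost in the deposited table (0.66) and by the methods' t-test after Benjamini-Hochberg adjustment (adjusted p = 0.0929). With slide as a fixed term none of these 3 passed, at differences of 1.80, 1.44 and 0.88 in the same order and adjusted p of 0.0573 to 0.253.

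Stretches upstream of the start were read from the RefSeq promoter table (build GRCm38.p6), which held 8 of the 10 genes and not Cyp2c54 or Cyp2c44. The 250 bases before the start of Cyp2c37 and of Cyp2c50, both lower in NZO, were 84.3% identical over their alignment. The next closest pairs joined Cyp2c39, higher in NZO, to Cyp2c38, whose probes disagreed (75.85%), and to Cyp2c29, not called (74.14%). The stretches of Cyp2c37 and Cyp2c50 both hold the letters CAAAGTNCA, the core of sites that HNF4A is known to bind. They are shown with Cyp2c70, which holds the same letters and was not lower in NZO, as 120 bases that end directly before the start, with the motif in capitals. They lie at chr19:39992304-39992423 (+ strand), chr19:40089559-40089678 (+ strand) and chr19:40187287-40187406 (- strand).

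Cyp2c37: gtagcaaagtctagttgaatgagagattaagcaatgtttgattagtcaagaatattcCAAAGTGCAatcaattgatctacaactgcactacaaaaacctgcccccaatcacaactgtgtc

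Cyp2c50: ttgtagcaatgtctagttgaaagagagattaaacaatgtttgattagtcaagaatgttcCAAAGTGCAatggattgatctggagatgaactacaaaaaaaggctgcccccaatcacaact

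Cyp2c70: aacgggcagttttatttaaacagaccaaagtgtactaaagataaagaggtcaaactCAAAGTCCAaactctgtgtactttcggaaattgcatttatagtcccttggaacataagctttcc

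CAAAGTNCA, searched on both strands, was found in 1.19% of all 32851 promoter entries. Besides these 3 genes it was found for Cyp2c40, Cyp2c65, Cyp2c67, Cyp2c68 and Cyp2c69, and not for Cyp2c29, Cyp2c38, Cyp2c39, Cyp2c55 or Cyp2c66. It thus stood before genes that were lower (Cyp2c37, Cyp2c50), higher (Cyp2c67, Cyp2c68) and not called (Cyp2c70). The letters TATAAA, also searched on both strands and found in 12.4% of entries, stood before Cyp2c29, Cyp2c38, Cyp2c55 and Cyp2c70 (there on the opposite strand, as tttata) and not before Cyp2c37, Cyp2c39, Cyp2c40 or Cyp2c50. On 1 strand or the other they also stood before Cyp2c65, Cyp2c66 and Cyp2c67, and not before Cyp2c68 or Cyp2c69. The matches are descriptions of the sequence, and the motifs were chosen after the sequences had been seen.

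Genes that work with Cyp2c enzymes were read against the 9.62% of all tested probes that were called. None of the 4 electron donors was called, and their median difference was -0.24. Cyb5a, which encodes cytochrome b5 and was the brightest of them, had levels of 8.31 ± 0.11 in NZO and 8.71 ± 0.08 in B6, a difference of -0.40 (SE 0.10, adjusted p = 0.0271). Cyb5r3, the reductase of cytochrome b5, named after its values were seen, had levels of 6.09 ± 0.09 in NZO and 5.54 ± 0.15 in B6, a difference of 0.55 (SE 0.11, adjusted p = 0.0104) under the limit on size. Of the 4 epoxide hydrolases 3 were tested and none was called, with 6.91 ± 0.38 in NZO and 6.85 ± 0.21 in B6 for Ephx1, the microsomal enzyme.

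Other enzymes of arachidonic acid were mostly not called either. Of 14 listed, 11 were tested, 1 was higher, 1 was lower and 9 were not called, with a median difference of 0.06. Cyp4a14, an omega-hydroxylase and target of PPAR alpha, was 2.95 higher in NZO (SE 0.53, adjusted p = 0.00676). Pla2g4a, the phospholipase that releases arachidonic acid, was lower (difference -0.76, SE 0.13, adjusted p = 0.00474), a call that was lost without NZO mouse 011 (difference -0.68), with normexp (-0.27), with the array median (-0.69), in the deposited table (-0.65) and with slide as a fixed term (-0.53, adjusted p = 0.207). Cyp4f14, the brightest uncalled gene, had levels of 6.97 ± 0.10 in NZO and 6.55 ± 0.13 in B6.

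Of the 14 receptors and transcription factors that act on Cyp2c genes or their neighbours in the liver network, all tested, only Nr1i3 was called. This gene encodes CAR and had levels of 2.62 ± 0.26 in NZO and 3.62 ± 0.18 in B6, a difference of -1.005 (SE 0.16, adjusted p = 0.00341), a call that was lost with slide as a fixed term (-1.15, adjusted p = 0.0995). Hnf4a had levels of 7.34 ± 0.11 and 7.32 ± 0.18, and the median over the list was -0.06.

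CAR and PXR targets went both ways, with 2 higher, 4 lower and 4 not called among 10 tested. Cyp2b10, the classical CAR target, was above background in 4 NZO mice and in 1 of 4 B6 mice. It passed the filter on dim probes only through NZO, which favoured its direction. Its difference of 6.02 (SE 0.64, adjusted p = 0.000479) has a size that rests on 3 B6 values not above background. The difference of Cyp2b10 A_55_P2044653 was 2.43 with normexp, and its call was lost with slide as a fixed term (5.63, adjusted p = 0.0541). Aldh1a7 was 1.27 higher (adjusted p = 0.000833), whereas the glutathione S-transferase Gstm3 was 1.86 lower in NZO (difference -1.86, adjusted p = 1.58e-05). The brightest uncalled target, Aldh1a1, had levels of 7.83 ± 0.23 in NZO and 8.22 ± 0.20 in B6.

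The sex-dependent genes were described since Cyp2c genes follow growth hormone. None of the 8 tested growth hormone signalling genes was called, with Ghr, the receptor, at 6.68 ± 0.12 in NZO and 6.37 ± 0.10 in B6. Of the genes known to be higher in female liver, 5 were tested. Of the 2 that were above background on all 8 arrays, both named after their values were seen, the P450 gene Cyp3a16 was 2.85 higher in the male NZO mice (adjusted p = 8.27e-05) and the steroid hydroxylase gene Cyp2a4 was lower (difference -1.28, adjusted p = 0.0117). The other 3 passed the filter on dim probes only through NZO, so that their direction was given by the filter. The steroid hydroxylase Cyp3a44 was at least 53.96-fold higher, A1bg at least 3.60-fold and Cyp2b9 at least 5.43-fold, since none of them was above background on any B6 array. Each of these bounds sets the NZO mean against the lowest signal called above background on each B6 array, on the scale of the levels above. Because of the filter, limma's adjusted p of these genes (4.25e-06, 0.000228 and 0.000959) says nothing further on their direction. With normexp the log2 differences were smaller, at 3.10 for Cyp3a44 A_52_P366803, 0.72 for A1bg A_52_P73552 and 0.78 for Cyp2b9 A_52_P256914, and the Cyp2b9 call was lost with slide as a fixed term (3.20, adjusted p = 0.0757).

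Among the 8 genes known to be higher in male liver, 2 were higher in NZO and 6 were not called. These were the omega-hydroxylases Cyp4a12a (difference 1.30, adjusted p = 0.00115) and Cyp4a12b (difference 1.32, adjusted p = 0.00192). Mup20, a major urinary protein and the brightest of the list, had levels of 9.66 ± 0.12 in NZO and 9.84 ± 0.10 in B6.

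**Figure D5:**
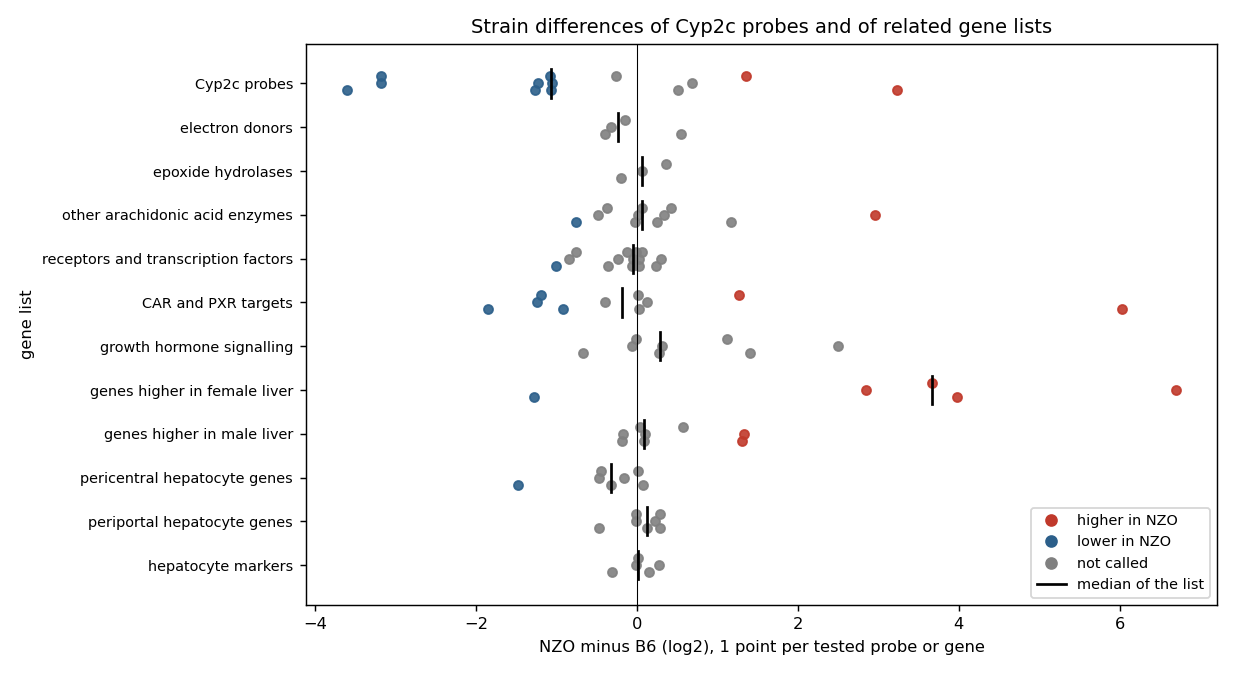
Differences between the strains (x axis, NZO minus B6 in log2) of the 13 Cyp2c probes and of the tested genes of 11 related lists (y axis), coloured by call, with the median of each list as a black bar. The Cyp2c median is -1.07, and the median of the hepatocyte markers is 0.01.

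Position in the liver lobule was covered by 2 lists, as Cyp2c transcripts are known to be more abundant around the central vein. Of 7 tested pericentral genes 1 was lower, Slc1a2, a glutamate transporter (difference -1.48, adjusted p = 6.61e-05), and the brightest, Cyp2e1, had levels of 9.80 ± 0.12 in NZO and 9.97 ± 0.04 in B6. None of 7 periportal genes was called, with Ass1 at 9.71 ± 0.25 in NZO and 9.42 ± 0.13 in B6. The medians were -0.33 and 0.13.

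Markers of other cells moved with strain in part. Red blood cell markers were higher in NZO for 2 of 4 genes, Hba-a1 (difference 1.01, adjusted p = 0.0181) and Alas2 (difference 0.90, adjusted p = 0.0023), with a summed level of 8.20 to 8.88 in NZO and 7.28 to 7.70 in B6 and Hba-a1 as the brightest probe. The Hba-a1 call was lost without B6 mouse 010 (adjusted p = 0.0564) or 015 (adjusted p = 0.0548), with quantile normalization, with no filter on dim probes and by the methods' t-test after Benjamini-Hochberg adjustment. Both calls were lost in the deposited table (differences of 0.79 for Hba-a1 and 0.66 for Alas2). With slide as a fixed term both were lost (1.06 for Alas2, adjusted p = 0.116, and 0.98 for Hba-a1, adjusted p = 0.272). Cholangiocyte markers were lower for 2 of 4 tested, Sox9 (difference -1.46, adjusted p = 0.00893) and Spp1 (difference -0.89, adjusted p = 0.0313), with a summed level of 0.77 to 1.35 in NZO and 1.79 to 2.46 in B6 and Spp1 as the brightest probe. The Spp1 call was lost without any mouse other than B6 mouse 010, with adjusted p of 0.0507 to 0.0818. Sox9 was not called with normexp (difference -0.58), and neither gene with slide as a fixed term (-1.72 for Sox9, adjusted p = 0.145, and -0.82 for Spp1, adjusted p = 0.395).

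Of 6 Kupffer cell and leukocyte markers 2 were lower, Clec4f (difference -1.13, adjusted p = 0.000853) and Itgax (difference -2.04, adjusted p = 0.0358). The other 4 were not called, with differences of -0.42 for Cd68, -0.51 for Ptprc, 0.33 for Cd3e and 0.41 for Lyz2. The summed level was 4.71 to 5.12 in NZO and 5.47 to 5.81 in B6, with Clec4f as the brightest probe. The Itgax call was lost without NZO mouse 003 or 009 and without any B6 mouse, with adjusted p of 0.0557 to 0.0964. Itgax was above background on 2 of 4 NZO arrays and passed the filter on dim probes only through B6, which favoured its direction. It differed by -0.37 with normexp (adjusted p = 0.0622). Neither gene was called with slide as a fixed term (-1.06 for Clec4f, adjusted p = 0.0822, and -2.66 for Itgax, adjusted p = 0.156). None of the 4 endothelial, 4 stellate cell, 2 tested adipocyte, 2 tested exocrine pancreas, 2 tested skeletal muscle and 2 tested intestinal epithelium markers was called. The adipocyte markers Adipoq, Plin1 and Lep and the pancreas markers Pnlip, Cela3b, Cpa1 and Prss2 were above background on no array. The summed level of the skeletal muscle markers was 4.03 in NZO mouse 007 and 2.46 in B6 mouse 010, against -2.43 to 0.47 in the other 6 mice. Leaving out NZO mouse 007 or B6 mouse 010, 1 at a time, gave 2 higher and 8 lower Cyp2c probes, as with all 8 mice. Both were not left out together. The part of the other cell types in the Cyp2c differences was not tested.

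The genes whose levels went most closely with Cyp2c44 over the 8 arrays, among 13266 genes outside the family that were above background on all of them, were Gstm2, H2bc1, F830016B08Rik, Tmod3 and Fam32a (Pearson r of 0.994 to 0.996). All 5 were lower on average in NZO, as was Cyp2c44, which follows from their choice by r. For the brightest member probe, that of Cyp2c70, they were Csad, Acsm2, Tex10, Psat1 and Sepsecs (r of 0.957 to 0.974). The 8 arrays share the strains, slides and scan days, and r is given as a description only.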

How the data were processed

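Total RNA of liver was labelled with Cy3 and hybridised by the authors to Agilent arrays. The deposited scanner files hold intensity values per spot (Agilent Feature Extraction, version 9.1 in the submitters' processing notes and 11.0.1.1 in the file headers, build mm9). The deposited table of the series held the raw median intensity, equal within 0.01 for 55249 of 55249 probes with a single spot on each array, and served as an alternative. The processed signal of the files, already corrected for background, was taken in log2 and scaled by subtraction of the array's 75th percentile. Between 96 and 137 spots with an outlier flag were dropped per array, and replicate spots were averaged to 55681 probes. The 27639 probes that were well above background in all 4 mice of 1 strain or of both were tested with limma 3.58.1 in R 4.3.3 (lmFit and eBayes, no covariate, Benjamini-Hochberg), and the procedure was tested on simulated data. The number of arrays limits the precision, and p-values rest on 4 mice per strain.

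Called probes had an adjusted p of at most 0.05 and a log2 difference of at least 0.7, the limits of the methods with an adjusted in place of an unadjusted p. Alternatives were normexp (offset 50), quantile normalization, the array median, the deposited table, other filters and limits, the methods' t-test, slide, scan day, mouse number as a replicate block, 1 probe per gene and leaving out each mouse. Named were all members, from each related list the 3 called genes with the largest differences and the brightest uncalled gene (each gene by its brightest probe), and 5 genes for likeness. Brightest uncalled genes of marker lists not given above differed by -0.65 (Krt19), 0.81 (Hbb-b1), -0.37 (Dcn), -0.30 (Fabp4) and -1.55 (Myh4). Genes named beyond this rule (Cyp2c65 to Cyp2c69, the remaining Kupffer cell and leukocyte markers, and markers above background on no array) were named for completeness. Cyp7a1, Cyb5r3, Cyp3a16 and Cyp2a4 were named after their values were seen. Members and lists were chosen with earlier results of these data known. Probe names were matched to RefSeq genes by accession (27656 probes), symbol (3349), synonym (313) or another accession (81), and coordinates of probes are those of the files. Permutation tests used scipy, and sequences were compared over overlaps of at least 30 bases.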

Additional observations from a re-analysis of the deposited data

Results flagged for a closer look

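In 6 of 112 groups of 4 arrays a single array stood far from the other 3 by Dixon's test, where chance flags about 1 in 20 groups. Of the Cyp2c probes, Cyp2c44 A_51_P209782 had a level of 2.92 in NZO mouse 003 against 2.10 to 2.20 in the other NZO mice. Both Cyp2c50 A_55_P2020477 (7.02 against 7.29 to 7.33) and Cyp2c54 A_55_P1993419 (6.94 against 7.13 to 7.14) were low in B6 mouse 015. The other 3 were Cyp4a12a in B6 mouse 009 (4.95 against 4.65 to 4.69), Itgax in B6 mouse 015 (-1.18 against -1.94 to -1.92) and Ctrb1 in B6 mouse 011 (-0.23 against 0.32 to 0.39).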

How the results depend on the processing

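None of the 13 Cyp2c probes changed direction under any alternative run. For the 12 without overlap between the strains, leaving out a mouse could not change the direction. The count of 2 higher Cyp2c probes became 1 with probes above background on all 8 arrays or with 1 probe per gene, 3 with the array median and 4 with no limit on the fold change. The count of 8 lower ones became 3 with slide as a fixed term, 6 with 1 probe per gene, and 7 with probes above background on all 8 arrays or by the methods' t-test after Benjamini-Hochberg adjustment. Leaving out each mouse gave 2 to 3 higher and 8 lower in each case. Of all probes, 1204 were higher and 1456 lower. Higher ones became 619 with normexp, 575 in the deposited table, 1887 with no limit on the fold change and 504 with slide as a fixed term. Lower ones became 580 with normexp, 957 with probes above background on all 8 arrays and 886 by the methods' t-test after Benjamini-Hochberg adjustment (835 higher). At the unadjusted limit that test gave 1295 higher and 1602 lower. Calls were 45.3% higher and 28.8% in the deposited table, whose median over all probes was -0.15. Leaving out a mouse gave 1074 to 1250 higher and 1219 to 1457 lower. Mouse numbers did not pair the strains (correlation of deviations -0.26 for mice 009 and -0.0041 for mice 011), and with mouse number as a replicate block 2 Cyp2c probes were higher and 8 lower, and of all probes 1160 and 1387. Genes not called changed sign as follows. Ephx1 (0.06) gave -0.0055 with normexp, -0.077 with quantile normalization, -0.18 in the deposited table, and -0.092 to 0.22 on leaving out a mouse (below 0 without NZO mouse 003 or B6 mouse 009). Hnf4a (0.03) gave -0.039, -0.13 and -0.20 in these settings, and -0.031 to 0.11 on leaving out a mouse (below 0 without NZO mouse 009 or B6 mouse 010). In the deposited table Slc27a5 gave -0.075 and Fabp2 -0.084. Fabp2 gave -0.022 to 0.25 on leaving out a mouse (below 0 without NZO mouse 003), and Clec4g gave 0.20 with slide as a fixed term. The cause of these changes was not tested. Dim probes such as Cyp2c38 A_52_P468564 and Cyp2c55 are limited by their signal over background.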
